A study of Homo sapiens with 23 samples.

Results

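IRX1, IRX2, IRX3, IRX4, IRX5 and IRX6 are the 6 Iroquois homeobox genes of the human genome, and their levels were followed through the differentiation of human stem cells into heart muscle cells. The genes were taken by symbol from the table of read counts, in which they are 6 of 57477 genes. All 6 had counts and all 6 passed the filter on low counts, IRX6 through the day on which it was highest. H1-hESC, an established human embryonic stem cell line labelled wild type, was differentiated into cardiomyocytes, and ribosomal RNA-depleted total RNA was sequenced at 8 times. By the labels, stem cells were taken at day 0, mesendoderm at day 1, cells of the cardiac mesoderm at day 3, cardiac progenitors at days 5 and 7, and cardiomyocytes at days 10, 14 and 28. There were 3 libraries per day, except for 2 at day 10, 23 in all. Stem cells were kept in mTeSR1 medium and cardiomyocytes in RPMI with insulin. All groups come from 1 cell line, and nothing in the labels says whether the libraries of a day came from separate cultures, so the p-values speak to the spread among these libraries alone.

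Iroquois proteins are transcription factors with a homeodomain of the TALE class, and in mammals their genes lie in a pair of clusters. In the developing heart they take part in telling regions of muscle apart. IRX4 is known as a factor of ventricular muscle, IRX3 for its part in the ventricular conduction system of the mouse, and IRX5 for the gradient of repolarisation across the mouse ventricular wall, where it represses the potassium channel gene Kcnd2. IRX1, IRX2 and IRX6 are less well described in heart muscle.

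One cluster lies on chromosome 5 in GRCh38. IRX4 (ENSG00000113430) is at chr5:1877413-1887236 on the minus strand, IRX2 (ENSG00000170561) at chr5:2745845-2751677 on the minus strand, and IRX1 (ENSG00000170549) at chr5:3595832-3601403 on the plus strand. The other lies on chromosome 16, with IRX3 (ENSG00000177508) at chr16:54283304-54286787 on the minus strand, IRX5 (ENSG00000176842) at chr16:54930865-54934485 on the plus strand and IRX6 (ENSG00000159387) at chr16:55324203-55330756 on the plus strand. These are the GENCODE v44 positions of whole genes, introns and UTRs included, and all 6 are annotated as protein coding.

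RefSeq promoter windows for GRCh38.p14, from 250 bases before to 50 after a start, were at hand for 3 of the 6 genes. They are shown because a non-coding RNA starts close to IRX2 and close to an IRX4 start inside the annotated gene. Which IRX4 start the cells used cannot be told from counts per gene. In the IRX1 window (chr5:3595582-3595881, plus strand) and the IRX2 window (chr5:2751628-2751927, minus strand), capitals mark every match to the GC box GGGCGG or to CCAAT on either strand. In the other pair of windows, the IRX4 start inside the annotated gene (chr5:1882876-1883175, minus strand) and the start of its antisense RNA IRX4-AS1 (chr5:1883083-1883382, plus strand), capitals mark the 93 bases that both windows hold.
IRX1: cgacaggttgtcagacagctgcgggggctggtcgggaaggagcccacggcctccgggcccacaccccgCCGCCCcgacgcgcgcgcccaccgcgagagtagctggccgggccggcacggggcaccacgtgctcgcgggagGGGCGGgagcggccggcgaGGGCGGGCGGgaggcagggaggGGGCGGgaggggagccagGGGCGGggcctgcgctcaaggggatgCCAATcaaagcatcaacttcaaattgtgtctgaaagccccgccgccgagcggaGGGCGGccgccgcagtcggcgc
IRX2: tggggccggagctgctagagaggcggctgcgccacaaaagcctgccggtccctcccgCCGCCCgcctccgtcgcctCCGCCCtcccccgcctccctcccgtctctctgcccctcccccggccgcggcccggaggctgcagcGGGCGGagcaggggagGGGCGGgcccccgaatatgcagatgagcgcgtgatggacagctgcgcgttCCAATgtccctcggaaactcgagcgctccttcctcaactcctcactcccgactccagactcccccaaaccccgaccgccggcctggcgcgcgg
IRX4: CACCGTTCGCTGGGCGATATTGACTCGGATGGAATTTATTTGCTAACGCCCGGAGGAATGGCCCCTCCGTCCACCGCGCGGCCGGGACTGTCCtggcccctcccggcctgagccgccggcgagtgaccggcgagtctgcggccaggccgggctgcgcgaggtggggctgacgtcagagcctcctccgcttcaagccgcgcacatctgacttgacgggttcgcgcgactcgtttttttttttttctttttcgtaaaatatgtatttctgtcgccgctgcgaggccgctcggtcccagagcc
IRX4-AS1: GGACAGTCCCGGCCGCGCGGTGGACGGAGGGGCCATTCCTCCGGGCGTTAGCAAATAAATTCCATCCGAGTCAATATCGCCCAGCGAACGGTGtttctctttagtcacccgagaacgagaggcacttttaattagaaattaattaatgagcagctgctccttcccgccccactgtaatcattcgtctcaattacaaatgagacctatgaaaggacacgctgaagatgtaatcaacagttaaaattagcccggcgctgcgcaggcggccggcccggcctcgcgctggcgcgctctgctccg

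The IRX1 window held 7 matches to GGGCGG, a pair of them overlapping, and the IRX2 window held 4. Each of these windows held 1 CCAAT. The printed IRX4 window held 0 matches to GGGCGG, and the other 2 IRX4 windows in the table held 3 and 2. Over 34943 promoter windows of the same length, 44.9% held GGGCGG and 34.6% held CCAAT. No window of the 3 genes held TATAAA on either strand, which 11.6% of all windows held. The same was true of AGATAA, for GATA factors, held by 10.4% of all windows. It was also true of CAAGTG, for NKX2-5, held by 11.5%, and of AGGTGT, for T-box factors, held by 11.4%. GC content was 76% for IRX1, 73.3% for IRX2 and 63% to 79.7% for the 3 IRX4 windows, against a median of 58.7% over all windows. The windows of IRX2 and of IRX2-DT, a divergent non-coding RNA, share 285 bases, with 216 bases between the 2 starts, while 408 bases separate the starts of IRX4 and IRX4-AS1 printed above.

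Total counts assigned to genes ranged from 4330334 at day 5 replicate 3 to 22089595 at day 0 replicate 2. Levels are given as CPM, the count scaled to a common library total with TMM factors. Markers of each labelled cell type were present: 4 stem cell markers summed to 5453 to 5765 CPM in day 0 libraries, 4 mesendoderm markers to 2639 to 3579 CPM in those of day 1, 4 cardiac mesoderm markers to 1691 to 2178 CPM in those of day 3, and 7 cardiomyocyte markers to 29840 to 43680 CPM in those of day 28. The 5 cardiac progenitor markers summed to 515.1 to 959 CPM in the libraries of day 5 and 701.2 to 749.1 CPM in those of day 7. They did not set these days apart, with 646.5 to 753.1 CPM at day 10 and 501.7 to 601.7 CPM at day 28. Cardiomyocyte markers already summed to 10980 to 13410 CPM in the day 7 libraries labelled progenitors, and the stem cell markers still summed to 1160 to 1259 CPM there. Nearly all of that sum was LIN28A, at 1196 ± 46.7 CPM, while POU5F1 averaged 5.43 ± 5.30 CPM, SOX2 9.26 ± 2.93 CPM and NANOG 0.349 ± 0.438 CPM (SD, n = 3 each). In RNA from whole cultures, fewer cells of a type and less RNA per cell cannot be told apart.

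The 6 genes followed different courses. IRX3, IRX5 and IRX1 were low in stem cells, high at day 3, lower at day 5 and higher again at day 7. IRX2 was the only member above 2 CPM in every stem cell library. IRX4 was near 0 at days 3 and 5, appeared at day 7 and was high at days 14 and 28. IRX6 averaged above 1 CPM at day 7 alone. The next 2 plots show every library and the make-up of the family.

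**Figure D1:**
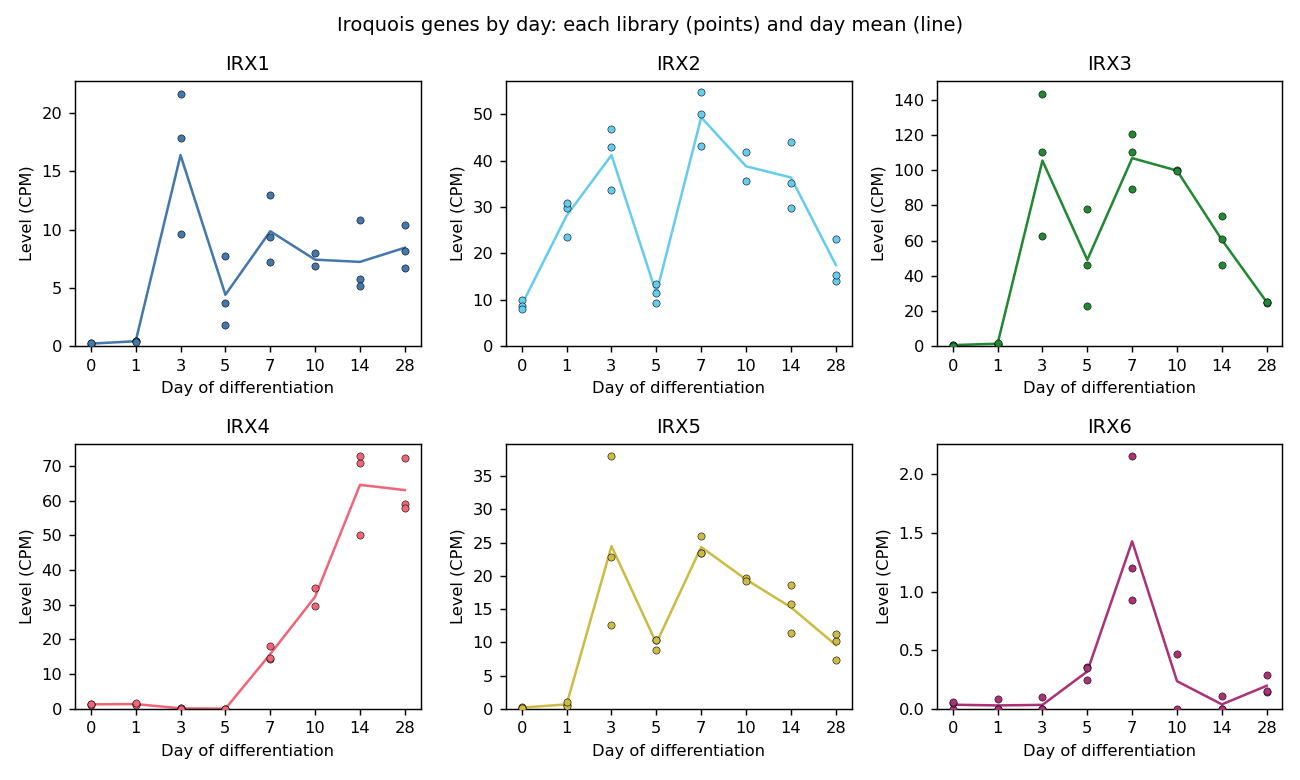
Level of each Iroquois gene in CPM (linear axes that start at 0, with a scale of their own) by day of differentiation; points are libraries (3 per day, 2 at day 10) and lines join the day means. IRX1, IRX3 and IRX5 have a high at day 3, a dip at day 5 and a high at day 7, IRX2 shows the same dip from a higher start, and IRX4 climbs to a mean of 64.6 CPM at day 14.

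**Figure D2:**
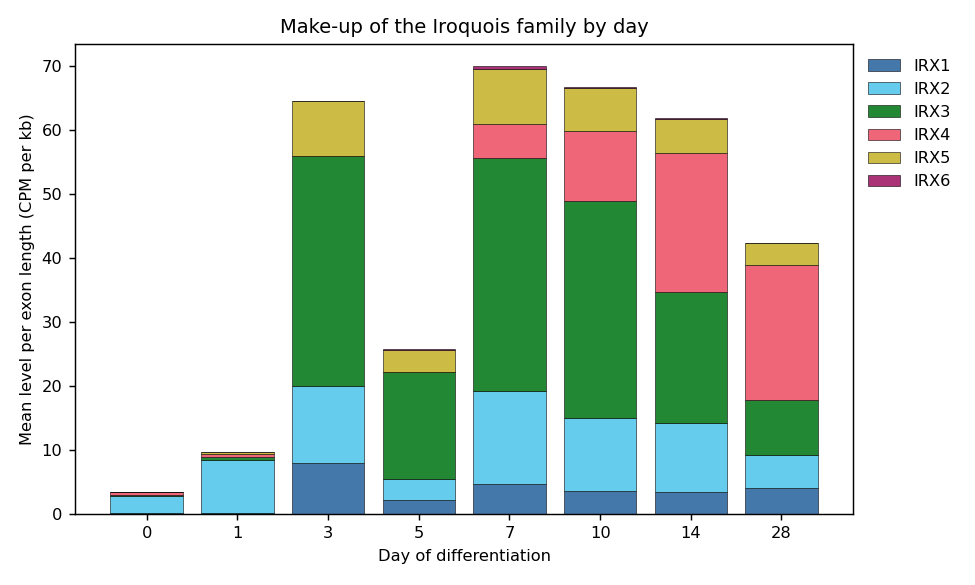
Stacked mean level of the 6 genes by day, per kilobase of exon length (CPM per kb), so that genes of different length can be added; error is not drawn. IRX2 fills most of the bars of days 0 and 1, IRX3 is the largest part from day 3 to day 10, and IRX4 is the largest at days 14 and 28.

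Per length, IRX2 made up 76.8% ± 0.969 of the family at day 0 and 86.0% ± 1.496 at day 1 (SD, n = 3 each). IRX3 made up 54.5% ± 5.67 at day 3, 62.2% ± 8.98 at day 5, 51.9% ± 2.23 at day 7 (n = 3 each) and 50.9% ± 0.222 at day 10 (n = 2). At day 14 IRX4 and IRX3 held like shares, 35.1% ± 0.427 and 33.2% ± 3.32. At day 28 IRX4 held 50.1% ± 5.12 and IRX3 20.2% ± 1.88. The family as a whole summed to 3.41, 9.64, 64.6, 25.7, 70.0, 66.8, 61.9 and 42.4 CPM per kb on the 8 days in order.

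**Figure D3:**
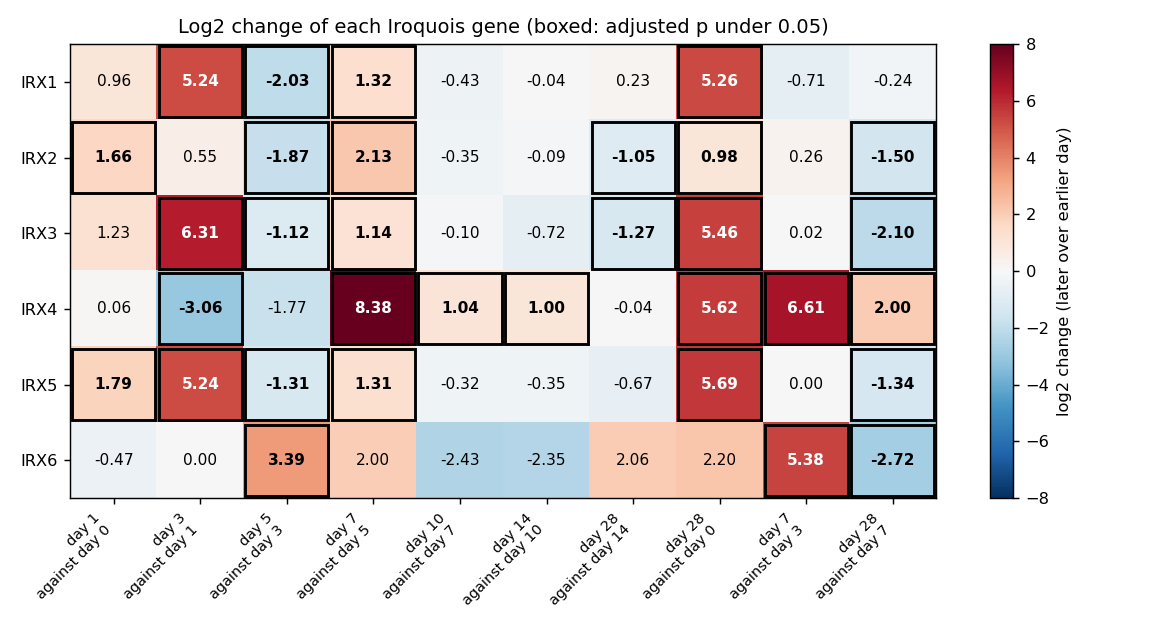
Log2 change of each gene in 10 comparisons (later over earlier day), from 1 edgeR fit of all 23 libraries; boxes mark an adjusted p under 0.05, and red is higher on the later day. The last 2 columns, day 7 against day 3 and day 28 against day 7, were added after the values were seen.

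In day 1 mesendoderm against day 0 stem cells, 2 of the 6 genes were higher and none was lower, where 15.3% of 22245 tested genes were higher and 31.8% were called in either direction. IRX2 stood at 29.9, 23.6 and 31.0 CPM at day 1 and at 9.88, 8.75 and 8.06 CPM at day 0. All 3 day 1 libraries lay above all 3 day 0 libraries, and the log2 change was 1.66 ± 0.24 (SE; edgeR quasi-likelihood test with Benjamini-Hochberg adjustment, as for all adjusted p below, 1.07e-05). IRX5 was higher too, but rested on 28 counts at day 1 and 10 at day 0, with a log2 change of 1.79 and an adjusted p of 0.0193. That call ended without day 0 replicate 2 (adjusted p 0.0942), day 0 replicate 3 (0.0649) or day 1 replicate 3 (0.094). IRX3 had a log2 change of 1.23 that missed the threshold (adjusted p 0.0556) and passed it without day 0 replicate 1 (0.0437) or with DESeq2 (0.0331). IRX4 was at 1.36 ± 0.345 CPM at day 1 and 1.28 ± 0.174 CPM at day 0, and IRX1 and IRX6 were below 0.5 CPM in all 6 libraries.

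Day 3 cardiac mesoderm against day 1 mesendoderm gave the largest rises of IRX1, IRX3 and IRX5 between consecutive times. Of the 6 genes, 3 were higher and 1, IRX4, was lower, where 18.2% of all genes tested were higher, 19.0% lower and 37.2% called. IRX3 was at 62.5, 110.3 and 143.5 CPM at day 3 and at 1.16, 1.07 and 1.81 CPM at day 1. Its summed counts were 4261 and 58, a ratio of rates of 72.9 (exact 95% interval 56.3 to 96.2, which covers counting error only). The log2 change was 6.31 ± 0.45 (adjusted p 6.1e-11). IRX5 was at 12.5, 22.9 and 38 CPM at day 3, against 0.540, 0.487 and 0.949 CPM at day 1, a log2 change of 5.24 ± 0.40 (adjusted p 1.97e-10). IRX1 was at 9.62, 17.9 and 21.7 CPM at day 3, against 0.463, 0.439 and 0.345 CPM at day 1, with a log2 change of 5.24 ± 0.49 (adjusted p 5.93e-09). For these 3 genes the lowest day 3 library was far above the highest day 1 library.

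IRX4 went the other way at day 3. It had 5, 2 and 0 counts in the day 3 libraries and 19, 20 and 19 counts in the day 1 libraries, that is 0.126 ± 0.114 CPM at day 3 and 1.36 ± 0.345 CPM at day 1 (SD, n = 3 each). Its log2 change was -3.06 ± 0.46 (adjusted p 1.02e-05), and the call was kept without each of the 6 libraries in turn. IRX2 was at 46.9, 43.1 and 33.7 CPM at day 3 and at 29.9, 23.6 and 31.0 CPM at day 1. Those ranges do not overlap, but the log2 change of 0.55 ± 0.23 missed the threshold (adjusted p 0.0599). It passed with library totals alone (0.00754), a minimum of 30 counts (0.0288) or DESeq2 (0.0299), and without day 1 replicate 3 (0.0454) or day 3 replicate 3 (0.0385). IRX6 had 1 count at day 3 and 1 at day 1.

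The 3 day 3 libraries differed in their Iroquois levels. IRX3 had nearly the same number of counts in each, 1411, 1419 and 1431, but the libraries held 20975832, 12210450 and 9252641 counts. IRX3, IRX5 and IRX1 were lowest in replicate 1 and highest in replicate 3, while IRX2 was highest in replicate 1. In the same order of replicates, the summed level of 4 mesendoderm markers was 180, 236 and 450.2 CPM, that of 4 cardiac mesoderm markers 1691, 2038 and 2178 CPM, that of 6 endoderm and liver markers 121.8, 183.5 and 244.6 CPM and that of 4 kidney and intermediate mesoderm markers 51.8, 69.5 and 141.2 CPM. Of that last sum LHX1 alone gave 50.0, 66.7 and 136.2 CPM. MESP1, a factor of early cardiac mesoderm, was at 26.5, 50.4 and 95.2 CPM, while 5 cardiac progenitor markers summed to 305.4, 391.4 and 288.7 CPM, without that order. Against that order ran the epicardial markers, at 13.8, 8.55 and 5.31 CPM, and the endothelial markers, at 7.40, 6.76 and 5.715 CPM. Neither order held for stem cell markers (2286, 3329 and 3186 CPM), fibroblast and stroma markers (253.3, 344.6 and 182.1 CPM) or neural markers (197.9, 137.8 and 278.5 CPM). None of these marker lists had a gene at 0 at day 3. Their part in the Iroquois levels was not tested.

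Day 5 progenitors against day 3 mesoderm showed a dip. Of the 6 genes, 4 were lower and 1, IRX6, was higher, where 6.33% of all genes tested were lower, 10.3% higher and 16.6% called. IRX2 was at 13.3, 9.32 and 11.4 CPM at day 5, well below the 46.9, 43.1 and 33.7 CPM of day 3, a log2 change of -1.87 ± 0.24 (adjusted p 2.44e-06). IRX1 was at 3.72, 1.81 and 7.69 CPM at day 5, against 9.62, 17.9 and 21.7 CPM at day 3, a log2 change of -2.03 ± 0.40 (adjusted p 0.000548). The calls of IRX2 and IRX1 were kept without each of the 6 libraries in turn. IRX5 was at 10.3, 8.90 and 10.4 CPM at day 5 and at 12.5, 22.9 and 38 CPM at day 3, a log2 change of -1.31 ± 0.32 (adjusted p 0.00412). IRX3 was at 45.95, 22.95 and 78.1 CPM at day 5 and at 62.5, 110.3 and 143.5 CPM at day 3, so that the ranges overlapped, with a log2 change of -1.12 ± 0.34 (adjusted p 0.024).

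The fall of IRX5 at day 5 was lost without day 3 replicate 3 (adjusted p 0.0654), and that of IRX3 without day 3 replicate 2 (0.0572), day 3 replicate 3 (0.141) or day 5 replicate 1 (0.0781). IRX6 had 3, 5 and 1 counts at day 5 and 0, 0 and 1 at day 3. Its call at a log2 change of 3.39 (adjusted p 0.0384) was kept only without day 3 replicate 3 and ended without any of the other 5 libraries, at adjusted p 0.051 to 0.209. IRX4 had 1 count in all at day 5 and 7 at day 3 (adjusted p 0.307). With only the libraries of the 2 days in the fit, IRX2 and IRX1 stayed called and IRX3 (0.224), IRX5 (0.0984) and IRX6 (0.11) did not.

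Day 7 against day 5, both labelled cardiac progenitors, brought 5 of the 6 genes up and none down, where 5.32% of all genes tested were higher, 5.02% lower and 10.3% called. IRX4 had 93, 120 and 142 counts at day 7 and 0, 1 and 0 at day 5. That is 18.2, 14.4 and 14.7 CPM at day 7 and 0.0232 ± 0.0402 CPM at day 5 (SD, n = 3). The ratio of rates, 355 counts to 1, was 411.2, with an exact 95% interval of 73.3 to 16290. The log2 change was 8.38 ± 0.53 (adjusted p 3.34e-11). IRX2 was at 43.1, 50.1 and 54.9 CPM at day 7, against 13.3, 9.32 and 11.4 CPM at day 5, with a log2 change of 2.13 ± 0.25 (adjusted p 1.07e-06). IRX5 was at 23.5, 23.4 and 26.1 CPM at day 7, against 10.3, 8.90 and 10.4 CPM at day 5, with a log2 change of 1.31 ± 0.32 (adjusted p 0.00766). These 3 calls were kept without each of the 6 libraries in turn.

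IRX3 was at 89.3, 110.6 and 120.6 CPM at day 7 and at 45.95, 22.95 and 78.1 CPM at day 5, a log2 change of 1.14 ± 0.34 (adjusted p 0.033). This call ended without day 5 replicate 1 (adjusted p 0.0995), day 7 replicate 2 (0.0706) or day 7 replicate 3 (0.091). IRX1 was at 7.25, 9.37 and 12.9 CPM at day 7 and at 3.72, 1.81 and 7.69 CPM at day 5, with overlapping ranges, a log2 change of 1.32 ± 0.41 and an adjusted p of 0.0368. It was kept only without day 5 replicate 3 or day 7 replicate 1, and ended without day 5 replicate 1 (0.114), day 5 replicate 2 (0.0906), day 7 replicate 2 (0.0637) or day 7 replicate 3 (0.157). IRX6 had 11, 10 and 9 counts at day 7 and 3, 5 and 1 at day 5, a ratio of rates of 3.86. Its exact 95% interval, 1.79 to 9.25, covers counting error only, and the change was not called in the fit (log2 change 2.00, adjusted p 0.0634). As IRX6 passed the filter on low counts through day 7, the ratio had to be in this direction and supports nothing. With only the libraries of the 2 days, IRX4 and IRX2 stayed called, IRX5 did not (0.056), and neither did IRX3 (0.168) or IRX1 (0.147).

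The day 5 libraries also differed among themselves. IRX3 and IRX1 were lowest in replicate 2 and highest in replicate 3. In the order of replicates 1 to 3, 7 cardiomyocyte markers summed to 2243, 1800 and 3847 CPM, 7 fibroblast and stroma markers to 1861, 2326 and 1444 CPM and 5 endothelial markers to 45.8, 77.1 and 17.6 CPM, with no marker of these lists at 0 on that day. Other lists differed as well. The stem cell markers summed to 3115, 1659 and 3630 CPM and the endoderm and liver markers to 461.1, 152.7 and 468.6 CPM. Epicardial markers went the other way, at 17.6, 73.7 and 13.4 CPM. IRX5 had the same order as IRX3 and IRX1 within a narrower range, and IRX2 was highest in replicate 1. The part of these markers in the dip was not tested.

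Day 7 was also set against day 3, the other high of IRX1, IRX3 and IRX5, in a comparison that shares its libraries with those of day 5. Of the 6 genes, 2 were higher, IRX4 and IRX6, and none was lower, where 15.4% of all genes tested were higher and 29.8% were called. IRX4 was at 15.8 ± 2.12 CPM at day 7 and 0.126 ± 0.114 CPM at day 3 (SD, n = 3 each; log2 change 6.61 ± 0.40, adjusted p 1.39e-12). IRX6 had 30 counts at day 7 and 1 at day 3, a ratio of rates of 59.0 (exact 95% interval 9.81 to 2407; adjusted p 5.85e-05). As IRX6 passed the filter on low counts through day 7, its call here had to be in this direction and supports nothing, and with a minimum of 30 counts it was not tested. The other 4 genes were not called. IRX3 averaged 106.8 ± 15.96 CPM at day 7 and 105.4 ± 40.7 CPM at day 3, and IRX5 averaged 24.3 ± 1.51 CPM at day 7 and 24.5 ± 12.8 CPM at day 3. The approximate SEs of their log2 changes were 0.34 and 0.30, which limits how small a difference could have been seen. IRX1 averaged 9.85 ± 2.88 CPM at day 7 and 16.4 ± 6.16 CPM at day 3 (log2 change -0.71, adjusted p 0.153), and IRX2 averaged 49.4 ± 5.92 CPM at day 7 and 41.2 ± 6.79 CPM at day 3 (log2 change 0.26, adjusted p 0.424).

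From day 7 on the family parted. At day 10 against day 7, IRX4 was the 1 gene called of 6, where 4.17% of all genes tested were higher, 3.50% lower and 7.67% called. It was at 29.7 and 35.0 CPM at day 10 and at 18.2, 14.4 and 14.7 CPM at day 7 (log2 change 1.04 ± 0.28, adjusted p 0.0205). At day 14 against day 10 it was again the 1 gene called of 6, where 1.64% of all genes tested were higher, 2.11% lower and 3.74% called. It was at 70.8, 50.1 and 72.8 CPM at day 14 and at 29.7 and 35.0 CPM at day 10 (log2 change 1.00 ± 0.28, adjusted p 0.0454). The ranges did not overlap at either step, but each call was near the threshold and was kept without only 1 of 5 libraries. Without each of the others the adjusted p at day 10 against day 7 was 0.104 (without day 7 replicate 2), 0.106 (day 7 replicate 3), 0.0967 (day 10 replicate 1) and 0.158 (day 10 replicate 2). At day 14 against day 10 it was 0.216 (day 10 replicate 1), 0.214 (day 10 replicate 2), 0.164 (day 14 replicate 1) and 0.186 (day 14 replicate 3).

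Over the same steps the other genes held or drifted without a call. IRX3 was at 73.95, 46.3 and 60.85 CPM at day 14 and at 100.1 and 99.4 CPM at day 10, without overlap, but the change missed the threshold (log2 change -0.72, adjusted p 0.288). IRX2 averaged 36.4 ± 7.25 CPM at day 14 (n = 3) and 38.8 ± 4.41 CPM at day 10 (n = 2). IRX1 averaged 7.22 ± 3.12 CPM at day 14 and 7.41 ± 0.824 CPM at day 10, and IRX5 averaged 15.3 ± 3.60 CPM at day 14 and 19.5 ± 0.379 CPM at day 10. IRX6 had 0 and 4 counts in the day 10 libraries and 11, 10 and 9 counts in those of day 7 (log2 change -2.43, adjusted p 0.074). Without day 10 replicate 2, whose 4 counts are all of that day's, its log2 change was -7.14. As IRX6 passed the filter on low counts through day 7, a fall from that day supports nothing.

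Day 28 against day 14, both labelled cardiomyocytes, gave 2 lower genes and no higher one among the 6, where 7.78% of all genes tested were lower, 7.96% higher and 15.7% called. IRX2 was at 14.1, 15.4 and 23.03 CPM at day 28, below the 35.2, 29.8 and 44.1 CPM of day 14 (log2 change -1.05 ± 0.23, adjusted p 0.00221). IRX3 was at 25.2, 24.75 and 25.0 CPM at day 28 and at 73.95, 46.3 and 60.85 CPM at day 14 (log2 change -1.27 ± 0.35, adjusted p 0.0116). The IRX3 call ended without day 14 replicate 1 (adjusted p 0.072). IRX4 was at 59.0, 72.4 and 57.8 CPM at day 28 and at 70.8, 50.1 and 72.8 CPM at day 14, so that its libraries overlapped (log2 change -0.04, adjusted p 0.956). IRX5 averaged 9.59 ± 1.995 CPM at day 28 and 15.3 ± 3.60 CPM at day 14, without overlap but not called (adjusted p 0.161). It was called with library totals alone (0.0488) and with only the libraries of the 2 days (0.0254). At this step 7 fibroblast and stroma markers summed to 2779 to 3230 CPM in the day 28 libraries and 359.8 to 603.5 CPM in those of day 14, with 5 of the 7 higher. The 6 endoderm and liver markers summed to 112.9 to 275.8 CPM in the day 28 libraries and 467.5 to 2967 CPM in those of day 14, with 4 of the 6 lower. No marker of either list was at 0, and their part in the Iroquois levels was not tested.

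The whole span from day 7 gave more calls. At day 28 against day 7, 4 of the 6 genes were lower and 1, IRX4, was higher, where 23.6% of all genes tested were lower, 25.0% higher and 48.6% called. IRX4 averaged 63.1 ± 8.11 CPM at day 28 and 15.8 ± 2.12 CPM at day 7 (log2 change 2.00 ± 0.26, adjusted p 6.97e-07). IRX3 averaged 25.0 ± 0.227 CPM at day 28 and 106.8 ± 15.96 CPM at day 7 (log2 change -2.10 ± 0.35, adjusted p 3.15e-05). IRX2 had a log2 change of -1.50 ± 0.24 (adjusted p 1.37e-05) and IRX5 one of -1.34 ± 0.31 (adjusted p 0.00104). IRX6 had 8 counts in the day 28 libraries and 30 counts in those of day 7 (log2 change -2.72, adjusted p 0.0019), and as it passed the filter through day 7 this call too supports nothing. IRX1 was at 6.71, 8.17 and 10.4 CPM at day 28 and at 7.25, 9.37 and 12.9 CPM at day 7, and was not called (log2 change -0.24 ± 0.37, adjusted p 0.616). The 5 calls were kept without each of the 6 libraries in turn. Beside these values, 7 fibroblast and stroma markers summed to 2779 to 3230 CPM in the day 28 libraries and 810.6 to 1519 CPM in those of day 7, and 7 cardiomyocyte markers to 29840 to 43680 CPM in the day 28 libraries and 10980 to 13410 CPM in those of day 7, with no marker at 0. Their part in the Iroquois levels was not tested. All of these comparisons share libraries with the ones before and after them.

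In day 28 cardiomyocytes against day 0 stem cells, 5 of the 6 genes were higher and none was lower, where 32.1% of all genes tested were higher and 60.5% were called. The log2 changes of IRX1, IRX3, IRX4 and IRX5 lay between 5.26 and 5.69. IRX4 averaged 63.1 ± 8.11 CPM at day 28 and 1.28 ± 0.174 CPM at day 0 (adjusted p 6.48e-14). IRX2 averaged 17.5 ± 4.83 CPM at day 28 and 8.90 ± 0.919 CPM at day 0, a log2 change of 0.98 ± 0.24 (adjusted p 0.0009). IRX6 had 8 counts at day 28 and 2 at day 0 (adjusted p 0.0628). The median log2 change of the 6 genes was 5.36, beside 0.09 over all genes tested.

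In the order of day means, neighbours often could not be parted by their libraries. The ranges of IRX1 overlapped from each rank to the next from the top, day 3, down to day 5. For IRX2, days 7, 3, 10, 14 and 1 overlapped in turn, day 28 stood apart, and days 5 and 0 overlapped at the bottom. For IRX3, days 7, 3 and 10 overlapped in turn, as did days 14, 5 and 28, and the wide day 3 range also reached those of days 14 and 5. For IRX4, days 14 and 28 overlapped, and day 10, day 7 and then days 1 and 0 each stood apart below them. For IRX5, days 3 and 7 overlapped at the top and days 5 and 28 overlapped, and days 10 and 14 each stood apart from the next day in the order, though the day 3 range took in both day 10 libraries and part of the day 14 range. IRX6 at day 7 stood apart from every other day, at 2.15, 1.20 and 0.931 CPM.

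Likeness was measured as Pearson's r of log2(CPM + 1) over the 23 libraries, among 13854 genes, as a description: the libraries share the time course, so that any gene with a like course scores high. Within the family IRX3 and IRX5, neighbours on chromosome 16, had r of 0.988. IRX1 of chromosome 5 had r of 0.942 with IRX5 and 0.931 with IRX3, but only 0.588 with IRX2 and 0.358 with IRX4 of its own cluster. IRX2 had r of 0.592 with IRX3, and IRX4 had r of 0.193 to 0.366 with the other 5. IRX6 had r of 0.193 to 0.431 with the others.

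Among named genes outside the family, the nearest to IRX3 were WNT5A-AS1, an antisense RNA of a Wnt ligand gene (0.978), and ID4, an inhibitor of basic helix-loop-helix factors (0.959). ID4 stood at 90.3, 137.0, 207.5 and 36.2 CPM on days 3, 5, 7 and 28 in order, without the dip of IRX3 at day 5. WNT5A-AS1 was also near IRX5 (0.968), as was KCNJ5 (0.956), which encodes an inward rectifier channel known in atrial muscle and averaged 90.6 ± 4.48 CPM at day 7. ARHGAP24 was nearest to IRX1 outside the family (0.930). IRX2 had no close match: DACT1, a modulator of Wnt signalling, reached 0.822, RREB1 0.817 and EPHA4, an ephrin receptor, 0.803.

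IRX4 was nearest to GJA3, which encodes a connexin (0.977), LAMA4, a laminin chain (0.977), and CASQ1, a calsequestrin of the sarcoplasmic reticulum (0.975). GJA3 stood at 0.335 ± 0.391 CPM at day 5, 11.7 ± 0.887 CPM at day 7, 47.5 ± 0.0912 CPM at day 10, 141.2 ± 28.6 CPM at day 14 and 171.1 ± 10.4 CPM at day 28. Like IRX4, it appeared between days 5 and 7 and was high at days 14 and 28. Among the genes most like IRX6 were NKX2-3, a homeobox gene (0.859), and CD34, a surface protein of endothelial and blood progenitor cells (0.831). CD34 averaged 15.1 ± 1.38 CPM and NKX2-3 14.0 ± 3.83 CPM in the day 7 libraries. The 5 endothelial markers summed to 17.6 to 77.1 CPM in the libraries of day 5, 130.4 to 149.4 CPM in those of day 7 and 12.8 to 16.3 CPM in those of day 28, with no marker at 0, and their part in the IRX6 level was not tested.

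Within 250 kb of the 2 clusters the annotation holds 31 other genes on chromosome 5 and 31 on chromosome 16, of which 26 and 26 are in the table. Of these 52 genes, 16 passed the filter, and at day 28 against day 7 4 of the 16 were higher and 4 lower, shares near the 25.0% higher and 23.6% lower of all genes tested. For 4 members, a non-coding RNA annotated close by is shown in the plot of IRX genes and the RNAs annotated beside them. CTD-2194D22.4, a non-coding RNA 95 bases from IRX4 on the other strand, is not plotted. It had 0 counts at days 0, 1 and 3, 8 at day 7, 29 at day 14 and 27 at day 28.

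**Figure D4:**
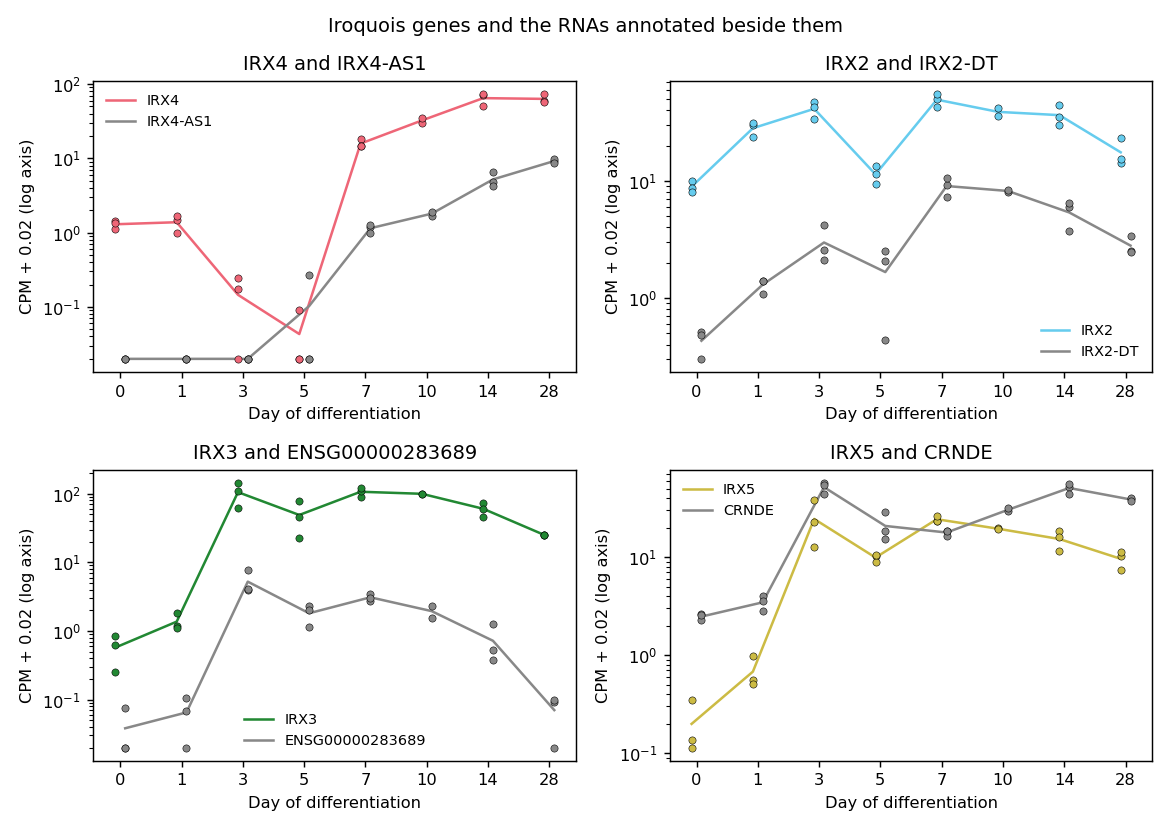
Level (CPM + 0.02, log axis) of 4 Iroquois genes (coloured) and of a non-coding RNA annotated next to each (grey) by day; points are libraries and lines join day means plus 0.02. IRX4-AS1 is higher at day 7 than at day 5, as IRX4 is, and goes on to 9.19 CPM at day 28. The RNA overlapping IRX3 is at 0.0503 CPM at day 28, and CRNDE is higher at day 28 than at day 7 while IRX5 is lower.

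IRX4-AS1 lies whole inside IRX4 on the other strand, over 1444 bases. The library kit keeps the strand, but no source used here gives the strand setting of the counting, so that reads of the 2 genes may not have been told apart. IRX4-AS1 had 0 counts at days 0, 1 and 3, while IRX4 had 72 and 58 counts at days 0 and 1. It had 1 count at day 5 and 6, 8 and 12 counts at day 7. It was at 9.21, 9.72 and 8.64 CPM at day 28, against 1.18, 0.961 and 1.24 CPM at day 7, a log2 change of 3.02 ± 0.36 (adjusted p 1.19e-06). Against the floor of 3 counts over day 0, its day 28 level was at least 174.1-fold higher. IRX4-AS1 counts were 14.7% ± 1.12 of IRX4 counts at day 28 and 7.19% ± 1.10 at day 7 (SD, n = 3 each; exact two-sided permutation p 0.1, the smallest that 3 against 3 allows).

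IRX2-DT starts beside IRX2 on the other strand and does not overlap it in the annotation. It averaged 0.4115 ± 0.113 CPM at day 0, 2.96 ± 1.10 CPM at day 3, 9.01 ± 1.71 CPM at day 7 and 2.78 ± 0.530 CPM at day 28. Like IRX2 it was called higher at day 7 against day 5 (log2 change 2.68 ± 0.42, adjusted p 7.16e-05) and lower at day 28 against day 7 (-1.71 ± 0.36, adjusted p 0.000403). Its summed counts were 4.54%, 6.83%, 18.5% and 15.75% of those of IRX2 on days 0, 3, 7 and 28 in order. Over single libraries the share was 16.8% ± 5.75 at day 28 and 18.2% ± 1.31 at day 7 (SD, n = 3 each; exact two-sided permutation p 0.8). It was 7.16% ± 2.27 at day 3, against which day 28 had an exact p of 0.1, the smallest possible.

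The non-coding gene ENSG00000283689 overlaps IRX3 on the other strand by 1184 bases, and the limit on strand holds for it too. It was at 3.90, 4.12 and 7.62 CPM at day 3, against 0, 0.0487 and 0.0863 CPM at day 1 (log2 change 6.56 ± 0.61, adjusted p 5.66e-09). At day 28 it had 2 counts in all and at day 7 it had 72 (log2 change -5.70 ± 0.65, adjusted p 1.27e-07). As a share of summed IRX3 counts it was 5.09%, 4.18%, 2.83%, 1.91%, 1.18% and 0.198% on days 3, 5, 7, 10, 14 and 28 in order. IRX3 still had 1011 counts at day 28.

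CRNDE, a long non-coding RNA known from colorectal cancer, starts 1675 bases from IRX5 and runs away from it on the other strand. At day 3 against day 1 both were higher, CRNDE at 57.1, 43.98 and 54.1 CPM at day 3 and 2.78, 3.996 and 3.54 CPM at day 1 (log2 change 3.90 ± 0.25, adjusted p 1.68e-11). At day 7 against day 3 CRNDE was lower (log2 change -1.54 ± 0.23, adjusted p 9.23e-06), while IRX5 was not called. At day 28 against day 7 they went opposite ways. CRNDE was at 39.3, 40.0 and 36.9 CPM at day 28 and at 18.4, 16.6 and 18.4 CPM at day 7 (log2 change 1.12 ± 0.23, adjusted p 0.00026), and IRX5 was lower as given above. CRNDE counts were 418.3% ± 104.4 of IRX5 counts at day 28 and 73.25% ± 4.41 at day 7 (exact two-sided permutation p 0.1, the smallest possible). They were 263.2% ± 168.1 at day 3, against which day 28 had an exact p of 0.3.

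The coding neighbours FTO, MMP2 and NDUFS6 were expressed at every time. CAPNS2, also a coding gene near the chromosome 16 cluster, had 40 counts over all libraries and did not pass the filter. FTO, which encodes an RNA demethylase and whose introns hold distant regulatory sequence linked to IRX3 and IRX5, averaged 61.4 ± 2.704 CPM in the libraries of day 0, 77.5 ± 7.21 CPM in those of day 3, 73.1 ± 5.38 CPM in those of day 7 and 98.95 ± 5.26 CPM in those of day 28. MMP2, a matrix metalloproteinase gene beyond IRX6, averaged 133.1 ± 41.3 CPM at day 7 and 475.4 ± 82.9 CPM at day 3, and was lower (log2 change -1.84, adjusted p 3.34e-05). NDUFS6, a complex I subunit gene beyond IRX4, averaged 76.6 ± 4.98 CPM at day 28 and 75.7 ± 7.45 CPM at day 7.

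IRX4 was set beside a list of 7 genes of ventricular muscle. It includes GJA1, the connexin gene of working muscle, which is not particular to the ventricle. At day 28 against day 7, 6 of the 7 were higher and none was lower, where 25.0% of all genes tested were higher and 23.6% lower. The median log2 change was 2.68, the value of GJA1, beside 0.00 over all genes tested. MYL2, the ventricular myosin light chain, was at 313.5, 398.2 and 268.3 CPM at day 28 and at 0.196, 0.120 and 0 CPM at day 7 (adjusted p 4.19e-10), where it had 2 counts in all. MYH7, the slow myosin heavy chain, averaged 17880 ± 4552 CPM at day 28 and 290.5 ± 23.6 CPM at day 7 (log2 change 5.94 ± 0.39, adjusted p 1.78e-11). HEY2, a repressor of atrial genes in the mouse ventricle, was at 62.6, 72.6 and 58.4 CPM at day 28 and at 9.21, 10.3 and 10.9 CPM at day 7 (log2 change 2.66 ± 0.22, adjusted p 7.57e-10). TNNI3 was the gene not called (adjusted p 0.241).

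**Figure D5:**
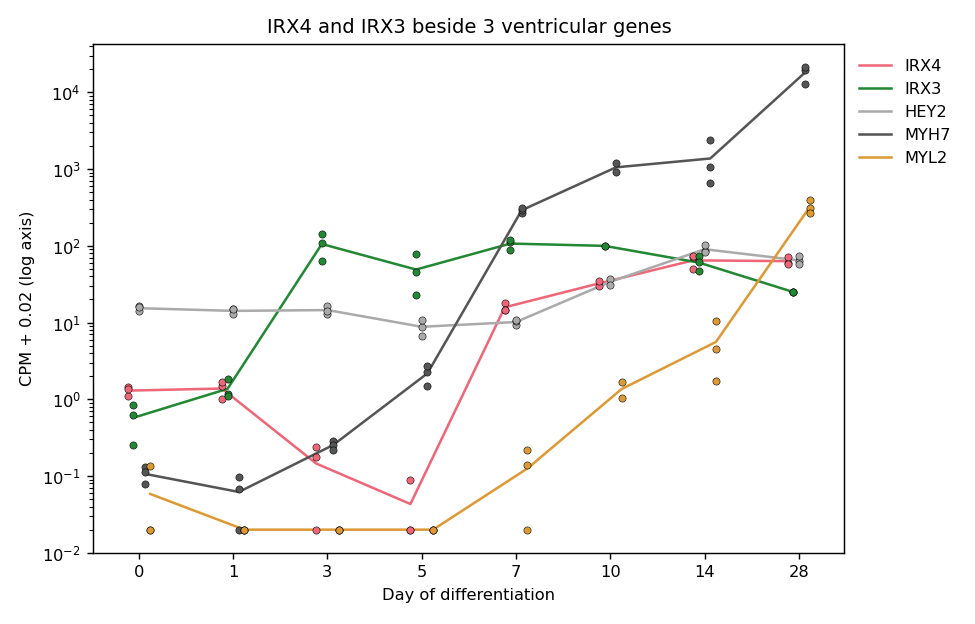
Level (CPM + 0.02, log axis) of IRX4, IRX3 and the ventricular genes HEY2, MYH7 and MYL2 by day; points are libraries and lines join day means plus 0.02. IRX4 reaches its high at days 14 and 28 with HEY2, while MYH7 and MYL2 are highest at day 28 and IRX3 is at 25.0 CPM there.

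The timing within this group differed. IRX4 went to 15.8 CPM at day 7, against 0.0232 CPM at day 5, when HEY2 was not called (10.1 ± 0.848 CPM at day 7 and 8.78 ± 2.12 CPM at day 5, adjusted p 0.558). HEY2 averaged 33.9 CPM at day 10, 90.3 CPM at day 14 and 64.5 CPM at day 28. MYL2 was at 1.69, 10.5 and 4.53 CPM in the day 14 libraries, in which IRX4 was already at 70.8, 50.1 and 72.8 CPM.

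Of 11 atrial genes, 3 were higher and 3 lower at day 28 against day 7, with a median log2 change of -0.35. These shares are near the 25.0% higher and 23.6% lower of all genes tested. MYH6, the fast myosin heavy chain, was lower (1864 CPM at day 28 and 4806 CPM at day 7, log2 change -1.37, adjusted p 0.00251), as was NR2F2, an atrial nuclear receptor (2.68 ± 0.699 CPM at day 28 and 13.9 ± 0.502 CPM at day 7, adjusted p 8.84e-06). NPPA, the atrial natriuretic peptide gene, was higher (583.6 ± 77.2 CPM at day 28 and 141.8 ± 13.1 CPM at day 7, adjusted p 1.06e-05).

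Cardiac factors that act beside Iroquois genes in the heart were counted as a list of 14. At day 3 against day 1, 10 were higher and none was lower, where 18.2% of all genes tested were higher, among them TBX3, a repressor of working muscle genes in the conduction system (105.4 ± 9.68 CPM at day 3 and 2.91 ± 0.672 CPM at day 1). HAND1 averaged 209.9 ± 48.3 CPM at day 3 and 0.0545 ± 0.0474 CPM at day 1. At day 7 against day 3, 9 were higher, where 15.4% of all genes tested were higher, among them NKX2-5 (269.1 CPM at day 7 and 0.378 CPM at day 3) and TBX5 (65.0 CPM at day 7 and 0.229 CPM at day 3). The day 3 high of IRX3, IRX5 and IRX1 was thus measured in libraries with under 1 CPM of NKX2-5 and TBX5 on average, and their day 7 high in libraries with both.

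At day 28 against day 7, 3 of the 14 were higher and 5 lower, where 25.0% of all genes tested were higher and 23.6% lower. TBX3 was lower like IRX3 (13.3 ± 1.65 CPM at day 28 and 168.6 ± 15.1 CPM at day 7, log2 change -3.66 ± 0.29, adjusted p 4.19e-10), as were TBX2 (log2 change -1.84, adjusted p 2.41e-05), HAND1 (-2.23, adjusted p 3.63e-06) and NR2F2. TBX20 was higher like IRX4 (220.1 ± 26.3 CPM at day 28 and 67.05 ± 4.82 CPM at day 7, log2 change 1.72, adjusted p 0.000104).

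Of 14 genes of the heart's electrical activity, the field in which IRX3 and IRX5 are best known, 7 were higher and 2 lower at day 28 against day 7, where 25.0% of all genes tested were higher and 23.6% lower. KCND2, the human form of the gene that Irx5 represses in the mouse, averaged 2.32 ± 0.110 CPM at day 28 and 0.932 ± 0.149 CPM at day 7 (log2 change 1.29 ± 0.36, adjusted p 0.0052), while IRX5 was lower. Over the earlier days KCND2 was at 25.6 ± 2.39 CPM at day 0, 4.48 ± 1.599 CPM at day 1 and 0.600 ± 0.174 CPM at day 3. IRX5 averaged 0.179, 0.659 and 24.5 CPM on those days in order. A link between KCND2 and IRX5 was not tested. KCNIP2, which encodes the partner protein of the KCND2 channel, averaged 7.62 ± 1.24 CPM at day 28 and 76.5 ± 4.21 CPM at day 7 (log2 change -3.33 ± 0.27, adjusted p 4.86e-10). The connexin gene GJA5 of conduction tissue averaged 18.9 ± 1.59 CPM at day 28 and 5.65 ± 1.19 CPM at day 7 (adjusted p 4.09e-05), and GJA1, the connexin gene of working muscle, averaged 349.7 ± 14.5 CPM at day 28 and 54.6 ± 7.06 CPM at day 7 (adjusted p 4.54e-05). HCN4, the pacemaker channel gene, was not called (96.01 ± 12.6 CPM at day 28 and 70.9 ± 2.50 CPM at day 7, adjusted p 0.227).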

How the data were processed

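The 23 libraries hold total RNA, depleted of ribosomal RNA, of H1-hESC cells on 8 days of cardiac differentiation. The deposited table holds whole-number counts per gene and library. Per the labels and the submitters' processing notes, the authors trimmed reads with Trim Galore, mapped them to GRCh38 using STAR 2.7.0 and counted them per gene with HTSeq-count and the GENCODE v38 annotation. The table used holds these counts unscaled. The strand setting is not given in the sources used here.

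Of 57521 genes, 44 pseudoautosomal copies on the Y chromosome, with 0 counts, were left out. Symbols, positions and exon lengths came from GENCODE v44 (56387 identifiers matched, 1090 did not), and promoters from RefSeq. No duplicate library was found. The filter was filterByExpr (minimum count 10). After TMM scaling, edgeR 4.0.16 (R 4.3.3) fitted 1 robust quasi-likelihood model, with a coefficient per day, to the 23 libraries together. The F-test's p-values were adjusted by Benjamini-Hochberg over 22245 genes, and a gene was called at adjusted p under 0.05. The SE of a log2 change was worked back from the test, as its absolute value over the square root of F. It is approximate, and least certain for changes near 0. CPM was taken over the library total times its TMM factor. Ratios of summed counts have exact 95% intervals. The script was tested on simulated data.

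All 6 members are named, with the 3 characterised genes most like each (mean of at least 5 CPM on some day), genes within 250 kb of the clusters reaching 1 CPM, and members of 16 lists; some of these are not reported here. Where not all could be named, the choice was made after values were seen, and day 7 against day 3 and day 28 against day 7 were added then. The members and lists were chosen with earlier results of these data known. Alternatives were RLE factors, library totals alone, no filter, a minimum of 30 counts, DESeq2 1.42.0, leaving out each library in turn, a fit to the 2 days compared alone, and a replicate block.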

Additional observations from a re-analysis of the deposited data

How the results depend on the processing

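Of 32 calls of Iroquois genes in the 10 comparisons, 23 were kept without each library of the 2 days in turn and 9 were lost without at least 1. The number of Iroquois genes called ranged, with 1 library left out, from 1 to 3 for day 1 against day 0 (2 with all), from 3 to 4 for day 5 against day 3 (5 with all), from 3 to 5 for day 7 against day 5 (5 with all), from 0 to 1 for day 10 against day 7 (1 with all), from 0 to 1 for day 14 against day 10 (1 with all) and from 1 to 2 for day 28 against day 14 (2 with all). With only the libraries of the 2 days it was 2 for day 5 against day 3 and 2 for day 7 against day 5. It was 0 for day 10 against day 7 with library totals alone, 0 for day 14 against day 10 with no filter, and 1 of 5 tested for day 7 against day 3 with a minimum of 30 counts. With the replicate block it was 0 for day 14 against day 10, where IRX4 had an adjusted p of 0.0615, and IRX6 was not called at day 5 against day 3 (0.0541). No steady pairing by replicate number was seen: over 28 same-numbered pairs the correlation of deviations from the day means was -0.464 to 0.279. Of these pairs 4 were over 0.1, and 0 comparisons had every one of 3 pairs over 0.1. Replicate 3 had 0.21 at day 3 against day 1 and 0.279 at day 5 against day 3, where replicates 1 and 2 had -0.464 to -0.205. IRX1, IRX3 and IRX5 were highest in replicate 3 on days 3, 5 and 7. This check cannot show whether some same-numbered libraries shared a culture or batch.

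Signs turned only for changes that were not called. IRX4 at day 1 against day 0 was -0.046 with library totals alone and -0.041 with only the 2 days (-0.078 to 0.284 with 1 library left out), beside 0.06. IRX3 at day 10 against day 7 was 0.027 with the replicate block, IRX1 at day 14 against day 10 was 0.036 with library totals alone (-0.509 to 0.106 with 1 library left out), and IRX4 at day 28 against day 14 was 0.046 with no filter (-0.153 to 0.106). At day 7 against day 3, IRX3 was -0.064 and IRX5 -0.081 with no filter (-0.238 to 0.309 and -0.312 to 0.465). With 1 library left out, IRX2 at day 14 against day 10 was -0.317 to 0.027, and IRX6 was -2.103 to 0.172 at day 1 against day 0, -1.679 to 1.71 at day 3 against day 1 and -4.655 to 2.25 at day 14 against day 10.

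Over all genes, library totals alone moved the median log2 change to 0.27 at day 3 against day 1, -0.15 at day 10 against day 7, -0.23 at day 28 against day 14 and -0.32 at day 28 against day 7, and the share of calls that were higher to 64.0% (beside 48.9%), 32.0% (54.4%), 32.0% (50.6%) and 34.2% (51.4%), with 67.9% (51.5%) at day 7 against day 5. No call of an Iroquois gene changed direction there. Calls over all genes with only the 2 days numbered 1641 at day 5 against day 3 (3698 in the full fit), 913 at day 7 against day 5 (2301), 4482 at day 10 against day 7 (1706), 1706 at day 14 against day 10 (833; 1305 with DESeq2) and 6435 at day 28 against day 14 (3501). With 1 library left out they numbered 293 (without day 10 replicate 1) to 1022 at day 10 against day 7, 7925 without day 5 replicate 2 at day 5 against day 3, 3924 without it, 1316 without day 7 replicate 2 and 1467 without day 7 replicate 3 at day 7 against day 5, 174 (without day 10 replicate 2) to 776 (without day 14 replicate 2) at day 14 against day 10, and 3954 to 4282 without day 0 replicate 2, day 1 replicate 1 or day 1 replicate 3 at day 1 against day 0 (7081). The cause was not tested. Depth was lowest in day 5 replicate 3 and day 7 replicate 1, and IRX6, with at most 11 counts per library, is the least precise member.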
